A study of Mus musculus with 8 samples.

Results

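The genes studied here were the lipopolysaccharide co-receptor Cd14, its partner Ly96, 6 Toll-like receptor genes (Tlr1, Tlr2, Tlr3, Tlr4, Tlr5 and Tlr9) and the adaptor genes Myd88 and Ticam1, measured in sorted mouse Paneth cells. They were found in the count table by gene ID, and all 10 were among its 55414 IDs. The set was chosen by an earlier result of the same libraries, the lower Cd14 level after zinc. Zinc against water is therefore given for these 10 genes as a description, with each library's value, the log2 fold change and its standard error (SE). No p-value of this contrast is given for them, and calls past the threshold are only counted. Tests are given only for other genes of the pathway and for the order of the levels over all 8 libraries.

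Toll-like receptors (TLRs) recognize conserved parts of microbes. CD14 takes up lipopolysaccharide, the outer membrane lipid of Gram-negative bacteria, and passes it to a complex of TLR4 and MD-2, the product of Ly96. TLR2 pairs with TLR1 or TLR6 to bind bacterial lipoproteins, TLR5 binds flagellin, TLR3 binds double-stranded RNA and TLR9 binds unmethylated CpG DNA. All of these except TLR3 signal through MyD88, while TLR3 signals through TRIF, the product of Ticam1, which TLR4 can also use. Both adaptors lead to NF-κB, and TRIF also to interferon regulatory factors. Paneth cells are secretory epithelial cells at the base of small intestinal crypts, and MyD88 signalling in them is known to maintain antimicrobial proteins such as RegIIIγ.

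All mice were C57BL/6J. Of these, 4 drank ultrapure (Milli-Q) water and 4 drank water with 25 mM ZnSO4, each for 7 days. Paneth cells were collected by fluorescence-activated sorting from a small intestinal cell suspension, and 1 stranded mRNA library was made for each mouse. The age and sex of the mice were not given in the labels. Library totals ran from 20760764 to 24117111 counts, and the scaling factors from 0.764 to 1.23. The limit that a count of 0 sets (3 counts) lay between 0.115 and 0.188 CPM (counts brought to 1 common total for all libraries), for counting error only. The labelled cell type was borne out by its markers. The 7 Paneth cell markers together held 41.1 to 53.4% of the counts, led by the α-defensin gene Defa24. CPM values below were scaled with TMM factors unless stated otherwise, and they are RNA levels of bulk libraries, in which fewer cells of a type and less RNA per cell cannot be told apart.

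Cd14 was the member with the clearest separation between the groups, which is the feature that selected the set. Cd14 (ENSMUSG00000051439) lies at chr18:36858120-36859851 on the minus strand of GRCm39, with 1 merged exon. It had 100, 150, 158 and 243 counts in the water libraries of replicates 1 to 4, and 25, 51, 56 and 89 counts in the zinc libraries. These counts correspond to 6.25, 6.44, 6.68 and 9.28 CPM with water and 1.48, 2.46, 2.21 and 3.45 CPM with zinc. Every zinc library was below every water library, and water replicate 4 was the highest of all. The mean of the water libraries was 7.17 ± 1.42 CPM and that of the zinc libraries 2.40 ± 0.813 CPM (SD, n = 4 in each group). This gave a log2 fold change of -1.56 (SE 0.26), or 2.95-fold lower. When each library was left out in turn the log2 fold change of Cd14 ranged from -1.80 to -1.41.

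Ly96 encodes MD-2, the secreted protein that holds lipopolysaccharide on TLR4. The gene (ENSMUSG00000025779, chr1:16758275-16779961, plus strand, 7 merged exons) had 6.88, 3.22, 5.16 and 3.32 CPM with water and 3.44, 3.52, 2.77 and 1.59 CPM with zinc. The groups overlapped, since zinc replicates 1 and 2 were above water replicates 2 and 4. Its log2 fold change was -0.71 (SE 0.31). Thus Ly96 was detected in all 8 libraries, with 41 to 122 counts each.

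Tlr4 itself was nearly absent from the counts. This gene (ENSMUSG00000039005, chr4:66745783-66849936, plus strand, 6 merged exons) had 1, 0, 6 and 31 counts in the water libraries and 0, 3, 0 and 0 counts in the zinc libraries. Water replicate 4, the library with the most Cd14, held 31 of its 38 counts with water. Tlr4 did not pass the filter on low counts and has no fold change here. Cd14 and Ly96 were therefore measured well above their counting limits in libraries where the receptor they serve was at 0 or within a few counts, with the exception of water replicate 4.

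**Figure D1:**
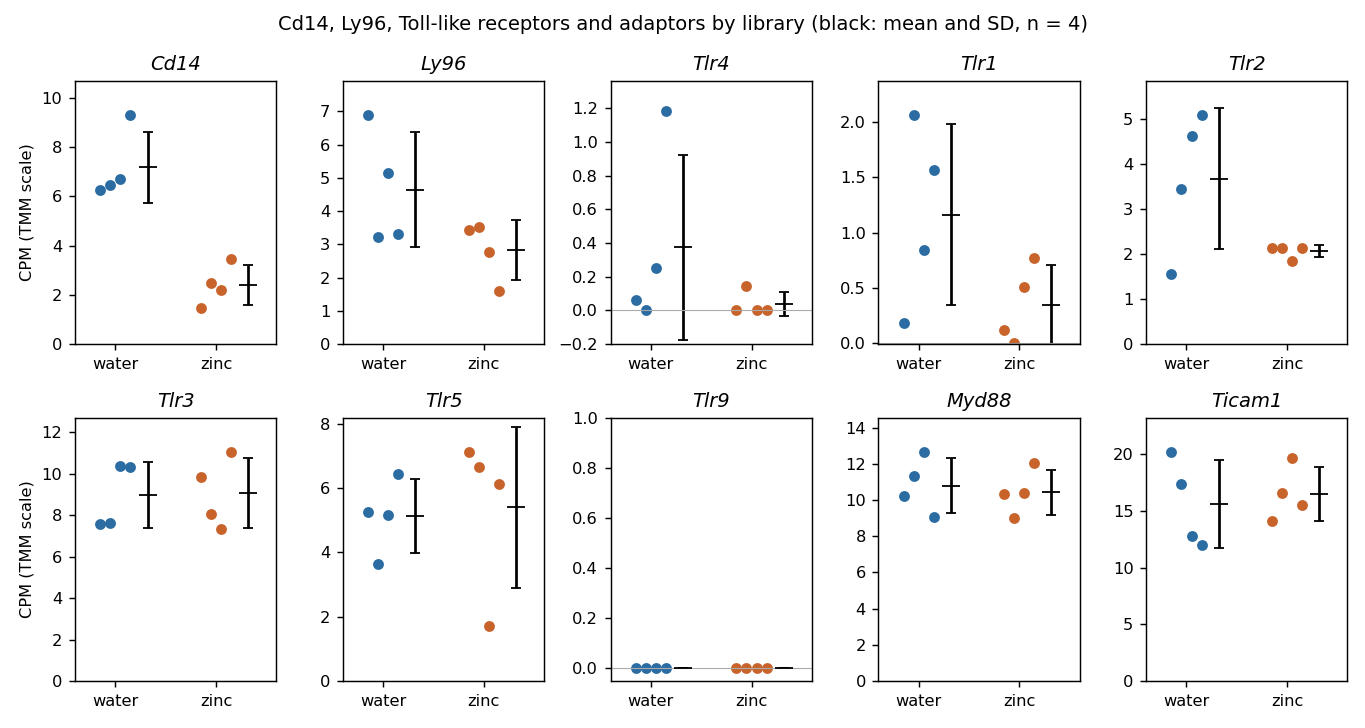
CPM (vertical axis, scaled with TMM factors, a separate linear scale for each gene) of the 10 members in the 4 water and the 4 zinc libraries. Points are libraries in the order of replicates 1 to 4, and black marks give the mean and SD of each group. Only Cd14 has all 4 zinc points below all 4 water points, and Tlr9 is at 0 in every library.

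Of the receptors for lipoproteins, Tlr2 was low and Tlr1 lower still. Tlr2 (ENSMUSG00000027995, chr3:83743576-83749074, minus strand, 1 merged exon) had 1.56, 3.44, 4.61 and 5.08 CPM with water and 2.14, 2.12, 1.86 and 2.13 CPM with zinc. Of the water libraries, 3 lay above all zinc libraries and replicate 1 lay below them, so the groups overlapped. The log2 fold change of Tlr2 was -0.84 (SE 0.32). Tlr1 (ENSMUSG00000044827, chr5:65082022-65090941, minus strand, 5 merged exons) had 3, 48, 20 and 41 counts with water and 2, 0, 13 and 20 counts with zinc. It passed the count filter with 3 water and 2 zinc libraries, and its log2 fold change of -1.66 had an SE of 0.79. The larger value of Tlr1 was thus the less precise one.

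Tlr3 and Tlr5, for double-stranded RNA and flagellin, were at similar levels with and without zinc. Tlr3 (ENSMUSG00000031639, chr8:45848702-45864117, minus strand, 7 merged exons) had 7.57, 7.60, 10.4 and 10.3 CPM with water and 9.86, 8.06, 7.35 and 11.1 CPM with zinc, a log2 fold change of 0.01 (SE 0.18). The lowest and the highest library were both zinc libraries. Tlr5 (ENSMUSG00000079164, chr1:182782311-182805500, plus strand, 5 merged exons) had 5.25, 3.65, 5.16 and 6.45 CPM with water and 7.13, 6.66, 1.70 and 6.13 CPM with zinc, a log2 fold change of 0.07 (SE 0.36). Zinc replicate 3 was the lowest of the 8 libraries, and without it the log2 fold change of Tlr5 was 0.36. Tlr9 (ENSMUSG00000045322, chr9:106099797-106104082, plus strand, 2 merged exons) had 0 counts in all 8 libraries.

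The adaptors were at similar levels in both groups. Myd88 (ENSMUSG00000032508, chr9:119165000-119170486, minus strand, 4 merged exons) had 10.2, 11.3, 12.7 and 9.05 CPM with water and 10.3, 8.98, 10.4 and 12.02 CPM with zinc, a log2 fold change of -0.05 (SE 0.16). The means were 10.8 ± 1.54 and 10.4 ± 1.25 CPM, respectively (SD, n = 4 per group). Ticam1 (ENSMUSG00000047123, chr17:56576319-56583786, minus strand, 2 merged exons) had 20.2, 17.4, 12.8 and 12.03 CPM with water and 14.1, 16.6, 19.7 and 15.5 CPM with zinc, a log2 fold change of 0.09 (SE 0.17). The groups overlapped for both adaptors. Exons of Myd88, Tlr3 and Tlr4 share 628, 438 and 235 bases with genes on the opposite strand (Acaa1a, Gm45542 and Gm69151). The sources used here do not say whether counting used strand, and without it the reads of these pairs cannot be told apart.

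Of the 10 members, 8 passed the filter. Cd14 alone was past an adjusted p of 0.05 in edgeR, against 0.0834% of all tested genes in either direction and 0.0584% in the lower direction. It was also the single member whose groups did not overlap, against 1.59% of all tested genes with all 4 zinc libraries below all 4 water libraries. Since this contrast chose Cd14, nothing is read from these counts. Cd14 was no longer past the threshold without water replicates 2, 3 or 4 or zinc replicates 2 or 3. Nor was it past with library totals as the only scaling. Its groups did not overlap, so leaving out 1 library could not turn its direction, which is not support. The log2 fold change was below 0 for 5 of the 8 and above 0 for 3, with a median of -0.38, beside 5761 of 11988 below 0 and a median of 0.01 over all tested genes. Besides Cd14, the 3 members with values well below 0 were Tlr1, Tlr2 and Ly96.

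Levels of different genes were compared per length, in CPM per kilobase of merged exons over all 8 libraries. Ticam1 was highest with a mean of 5.36 CPM per kb, which put it at percentile 77.0 of the tested genes. Ly96 (3.02), Cd14 (2.76) and Myd88 (2.73) followed, at percentiles 62.6, 60.0 and 59.7. Tlr3 was next at 1.69 CPM per kb (percentile 45.2), then Tlr5 at 0.783, Tlr2 at 0.522 and Tlr1 at 0.224 (percentiles 26.97, 19.0 and 8.27). Tlr4 had 0.0293 CPM per kb and Tlr9 had 0. Over all 8 libraries, the adaptors and the genes of both lipopolysaccharide-binding proteins thus had higher means than all the receptors. This did not hold in each group, since Cd14 was above Tlr3 in each water library but below it in each zinc library. The zinc values were 0.857, 1.42, 1.28 and 1.99 CPM per kb for Cd14 and 1.84, 1.51, 1.37 and 2.07 for Tlr3. Ly96 was also below Tlr3 in zinc replicate 4 (1.29).

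Neighbours in this order were compared within libraries by exact two-sided sign-flip permutation tests, adjusted over the 9 pairs. Of these, 5 differed. Ticam1 over Ly96, Myd88 over Tlr3, Tlr3 over Tlr5 and Tlr2 over Tlr1 each held in 8 of 8 libraries (adjusted exact p = 0.0176), and Tlr1 was above Tlr4 in 7 of 8 (adjusted exact p = 0.0422). The other 4 pairs could not be ordered over all 8 libraries: Ly96 and Cd14 (adjusted exact p = 0.483), Cd14 and Myd88 (0.531), Tlr5 and Tlr2 (0.161), and Tlr4 and Tlr9 (0.161). For Cd14 and Myd88 the test pooled 2 groups with opposite orders. Cd14 was above Myd88 in each water library (3.61, 3.72, 3.86 and 5.36 against 2.62, 2.91, 3.25 and 2.33 CPM per kb). It was below Myd88 in each zinc library (0.857, 1.42, 1.28 and 1.99 against 2.66, 2.31, 2.67 and 3.09). This reversal reflects the contrast that chose Cd14. The smallest exact p that 8 libraries allow is 0.00781. The order depended on the length used, because a gene's annotated exons need not all be in its main transcript. With the longest transcript in place of merged exons, Ly96 was at 4.93 CPM per kb, close to Ticam1 at 5.36, Myd88 (3.18) came above Cd14 (2.92) and 0 of the 9 pairs passed, with a smallest adjusted exact p of 0.0703.

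**Figure D2:**
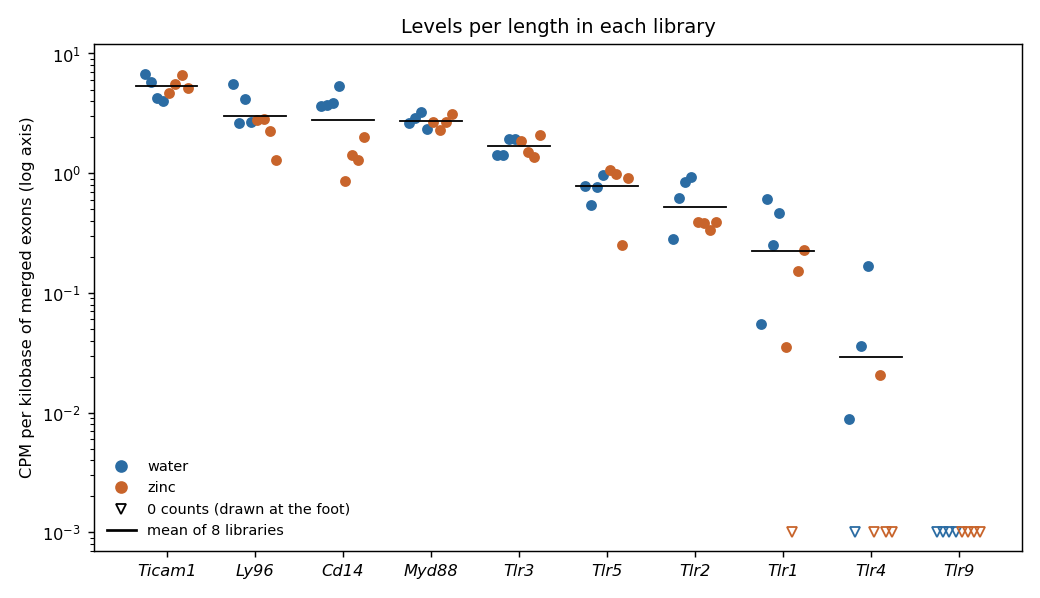
CPM per kilobase of merged exons (log axis) of each member in the 8 libraries, ordered by the mean, with water and zinc libraries in separate colors. Lines are means of 8 libraries and open triangles are libraries with 0 counts. The levels run from a mean of 5.36 for Ticam1 to 0 for Tlr9.

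The Toll-like receptor family as a whole was sparse in these libraries. Of the 12 mouse TLR genes, 5 (Tlr7, Tlr8, Tlr9, Tlr11 and Tlr13) had 0 counts in all 8 libraries, 2 more (Tlr4 and Tlr12) were under the filter and 5 were tested. Tlr6, the partner of TLR2 for diacylated lipoproteins, had 0 to 20 counts per library and a log2 fold change of -0.51 (SE 0.84, adjusted p = 0.998, edgeR). Without water replicate 1 the sign of Tlr6 turned, with a value of 0.21. Lbp, the serum protein that brings lipopolysaccharide to CD14, had 1 to 20 counts per library and was not tested. The B cell receptor pair Cd180 and Ly86 was at 0 in every library. Of these 10 other receptors and co-receptors, 1 was tested and 0 were past the threshold in edgeR, with 0 at an unadjusted p below 0.05 and 0 in DESeq2 and limma-voom.

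Genes for the folding of TLRs and their transport to endosomes ranged widely per length, from 0 for Rab7b and 0.968 CPM per kb for Slc15a4 to 51.4 CPM per kb for Hsp90b1. Hsp90b1, the chaperone gp96 on which most TLRs depend, had 235 to 411 CPM, and Lrrc59, an endoplasmic reticulum protein that takes part in the transport of nucleic acid-sensing TLRs, had 130 to 218 CPM. The log2 fold changes were 0.09 (SE 0.16) for Hsp90b1 and 0.19 (SE 0.16) for Lrrc59, each with an adjusted p of 0.998 in edgeR. Without water replicate 3 the value of Hsp90b1 was -0.02. Unc93b1, the escort of the endosomal receptors Tlr3, Tlr7 and Tlr9, had 41.7, 35.4, 40.6 and 32.9 CPM with water and 33.4, 30.3, 34.3 and 28.9 CPM with zinc, and was chosen after its values were seen. Of 8 genes in this list, 7 were tested, and 0 were past the threshold in edgeR, DESeq2 or limma-voom. At an unadjusted p below 0.05 in edgeR there was 1 of 7 (Unc93b1), beside 558 of 11988 over all tested genes, and nothing is read from it. The median log2 fold change of the list was 0.09.

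Adaptors, kinases and transcription factors downstream were expressed and differed little between the groups. Of 26 such genes, 23 were tested, and the median log2 fold change was -0.12 with 16 values below 0. The range was -0.37 to 0.16. Irak1, the kinase that MyD88 recruits, was 1 of the 2 highest per length in the list, with 76.6, 83.8, 75.6 and 71.8 CPM with water and 93.1, 91.8, 86.1 and 73.5 CPM with zinc. Its log2 fold change was 0.16 (SE 0.11, adjusted p = 0.998, edgeR). Irf3, the interferon regulatory factor downstream of TRIF, was the other and had a log2 fold change of 0.15 (SE 0.14, adjusted p = 0.998, edgeR). In this list 0 genes were past the threshold in edgeR, DESeq2 or limma-voom. At an unadjusted p below 0.05 in edgeR there was 1 of 23 (Traf3), beside 558 of 11988 over all tested genes. Tab3 alone had all 4 zinc libraries below all 4 water libraries, which is 1 of 23 against 1.59% of all genes, and with library totals as the only scaling it was 0 of 23. Ticam2, the adaptor that links TRIF to TLR4, had 0 to 5 counts per library, and Sarm1 had 0 in all.

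Of the other receptors that use MyD88, those for interleukin-1 and interleukin-18 and their relatives, 1 of 6 was tested. Il1rap, the shared accessory chain, had 7.57 to 10.6 CPM and a log2 fold change of 0.08 (SE 0.16, adjusted p = 0.998, edgeR). Il1r1, the ligand-binding chain for interleukin-1, had 20, 1, 13 and 3 counts with water and 0, 0, 0 and 2 counts with zinc, and was under the filter. No gene of this list was past the threshold in edgeR, DESeq2 or limma-voom (0, with 0 at an unadjusted p below 0.05).

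Among genes that restrain TLR signalling, Zc3h12a fell with zinc. It encodes Regnase-1, an RNase that degrades cytokine mRNAs. It had 15.8, 17.4, 18.6 and 13.7 CPM with water and 6.77, 7.00, 5.45 and 7.10 CPM with zinc, with every zinc library below every water library. The log2 fold change was -1.32 (SE 0.16, adjusted p = 0.0022, edgeR), lower in 4 of 4 zinc libraries, and it was past the threshold in all 15 alternatives, with adjusted p between 3.06e-10 and 0.0382. Nfkbia, the inhibitor IκBα and itself an NF-κB target, had 25.9, 30.2, 32.9 and 27.8 CPM with water and 24.1, 18.4, 21.1 and 14.9 CPM with zinc, a log2 fold change of -0.58 (SE 0.15) that did not pass (adjusted p = 0.385, edgeR). Tollip, which holds IRAK1 inactive, had a log2 fold change of -0.13 (SE 0.11, adjusted p = 0.998, edgeR). All 12 genes of this list were tested, of which 1 fell and 0 rose, against 0.0584% of all tested genes that fell. At an unadjusted p below 0.05 in edgeR there were 5 of 12, all lower with zinc. Over all tested genes this was 558 of 11988, of which 337 were lower. The log2 fold change was below 0 for 9 and the list median was -0.21, and 2 of 12 (Zc3h12a and Nfkbia) had all zinc libraries below all water libraries, against 1.59% of all tested genes. With library totals as the only scaling Nfkbia overlapped and 1 of 12 remained, against 0.726% of all tested genes. The fall of Zc3h12a was known before the lists were written and is not independent of them.

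**Figure D3:**
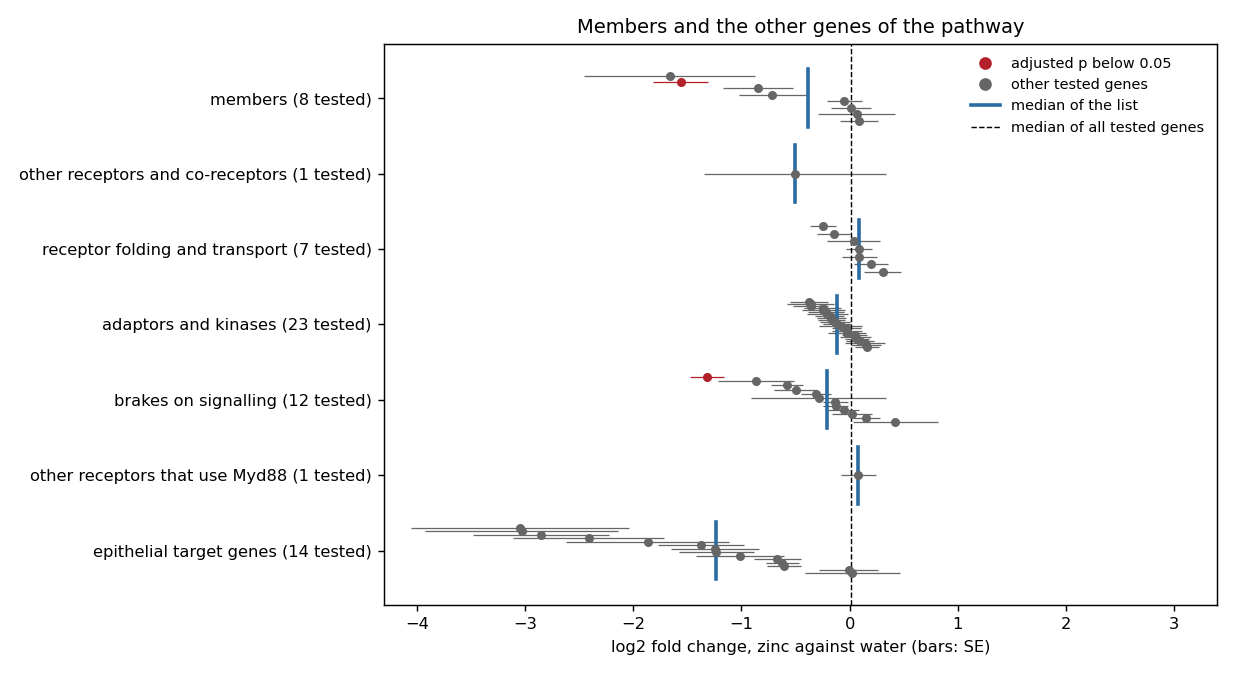
Log2 fold change with zinc (horizontal axis, bars are SE) of every tested gene, in a row for each list. Blue lines are list medians, the dashed line is the median of all tested genes, and red marks Cd14 and Zc3h12a. The epithelial target genes have a median of -1.24, while adaptors and kinases lie between -0.37 and 0.16.

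Epithelial genes known to respond to TLR or NF-κB signalling were mostly at lower values with zinc, but none of them passed the test in edgeR with treatment as the only term. Of 30 listed genes, 14 were tested, 13 had a log2 fold change below 0 and the median was -1.24, beside 0.01 over all tested genes. The count past the threshold was 0 in edgeR, with a smallest adjusted p of 0.179. At an unadjusted p below 0.05 there were 12, beside 558 of 11988 over all tested genes. DESeq2, which tested more genes, put 3 past the threshold (Pigr, Icam1 and Tnf), beside 36 of 20821 over all genes, and limma-voom put 0. Adding a replicate term to edgeR put Pigr and Duox2 past it, beside 32 of 11988 over all genes. In 8 of the 14, all 4 zinc libraries were below all 4 water libraries, against 1.59% of all tested genes. These 8 were Reg3b, Reg3g, Ccl20, Nos2, Duoxa2, Icam1, Pigr and Birc3. With library totals as the only scaling the number was 7, against 0.726% of all tested genes. Duoxa2, Pigr and Birc3 then overlapped, and Retnlb and Nfkbiz no longer did. Of the 14 genes, 2 (Ccl20 and Icam1) passed the filter with no zinc library, so they had to be lower with zinc, and the counts and the median are not support for a change of the list. Earlier results on NF-κB genes in these libraries were known when it was written.

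Genes of this list are named by their place in it or, where said, after their values were seen. Ang4, a microbicidal ribonuclease, and Reg3g, the bactericidal lectin RegIIIγ, were the 2 highest per length. Ang4 had 9273 to 20190 CPM, and its log2 fold change was -0.01 (SE 0.27, adjusted p = 0.998, edgeR), turning to as much as 0.17 when 1 library was left out. Reg3g had 1382, 2040, 1175 and 914 CPM with water and 837, 425, 758 and 329 CPM with zinc. All zinc libraries of Reg3g were below all water libraries, but its log2 fold change of -1.23 (SE 0.34) did not pass (adjusted p = 0.794, edgeR). It passed with library totals as the only scaling.

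The following genes were chosen after their values were seen. Pigr, the receptor that carries IgA across the epithelium, had 1211, 1488, 1915 and 1496 CPM with water and 972, 1014, 960 and 1063 CPM with zinc (log2 fold change -0.61, SE 0.16, adjusted p = 0.403, edgeR). Icam1, an adhesion molecule induced by NF-κB, had 10, 15, 30 and 31 counts with water and 3, 2, 5 and 1 counts with zinc (log2 fold change -2.85, SE 0.63, adjusted p = 0.179, edgeR). Tnf, the gene of tumor necrosis factor, was under the filter, with 8, 21, 15 and 34 counts with water and 0, 0, 3 and 2 counts with zinc. For each of these 3 genes all zinc libraries were lower in CPM, beside 1.59% of all tested genes, though Pigr overlapped with library totals as the only scaling. Given how the 3 were chosen, this is not support for a change. Icam1 passed the filter through its water libraries alone and so had to be lower. Nos2, the inducible nitric oxide synthase, had 40, 70, 137 and 170 counts with water and 27, 2, 0 and 16 counts with zinc (log2 fold change -3.03, SE 0.89, adjusted p = 0.872, edgeR). Nfkbiz, the nuclear cofactor IκBζ, overlapped in CPM because of zinc replicate 1 (log2 fold change -1.38, SE 0.40, adjusted p = 0.852, edgeR). Il1b, Il6, Cxcl1, Cxcl2, Cxcl5 and Ifnb1, cytokine genes that macrophages induce strongly after TLR signalling, had 0 counts in every library.

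**Figure D4:**
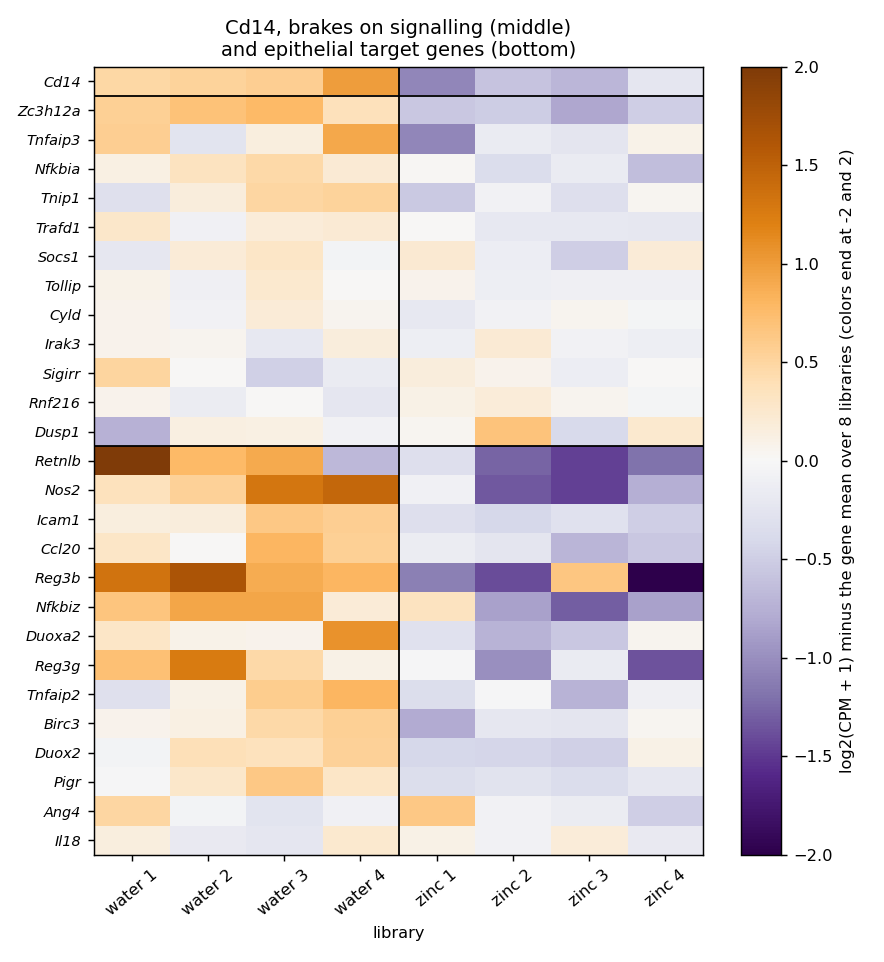
Color gives log2(CPM + 1) minus the mean of the gene over the 8 libraries, for Cd14, the 12 brakes on signalling and the 14 tested epithelial target genes, in rows ordered by log2 fold change. Columns are libraries, water on the left. For Cd14 and Zc3h12a all 4 zinc libraries are below all 4 water libraries, while for Ang4 and Il18 at the foot the groups overlap.

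The promoters of the members were searched for 3 motifs. RefSeq sequences (GRCm38.p6, a build other than that of the counts) were matched for 7 of the 10 members, with 8 promoters of 250 bases upstream of the start site. Cd14, Ly96 and Tlr4 were not matched. The metal response element core, TGCACNC or TGCGCNC on either strand, is bound by the zinc-sensing factor MTF-1 and was in 0 of the 8, against 21.4% of 32851 promoters. The NF-κB site was in 2, against 7.25%, and the interferon response element core, GAAANNGAAA, in 1, against 2.98%. The 3 promoters that hold a match are given here, 5′ to 3′ along the gene (all on the minus strand), with the match in capitals. The 2 NF-κB matches of Tlr2 overlap and begin 173 and 172 bases before the start site, that of Tlr3 begins 211 bases before it, and the interferon element of Myd88 begins 40 bases before it. A match is a run of letters and was not tested for binding.
Tlr2 (NF-κB, chr3:83841609-83841858): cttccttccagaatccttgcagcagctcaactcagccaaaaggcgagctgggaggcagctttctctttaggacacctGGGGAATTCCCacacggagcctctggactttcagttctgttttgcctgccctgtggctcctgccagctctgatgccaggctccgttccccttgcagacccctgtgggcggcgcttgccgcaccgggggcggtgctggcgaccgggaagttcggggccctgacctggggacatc
Tlr3 (NF-κB, chr8:45410381-45410630): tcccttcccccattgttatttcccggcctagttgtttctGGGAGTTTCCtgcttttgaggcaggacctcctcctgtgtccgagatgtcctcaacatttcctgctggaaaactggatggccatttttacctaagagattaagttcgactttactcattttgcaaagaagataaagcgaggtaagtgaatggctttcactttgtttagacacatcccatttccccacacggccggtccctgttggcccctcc
Myd88 (interferon element, chr9:119340019-119340268): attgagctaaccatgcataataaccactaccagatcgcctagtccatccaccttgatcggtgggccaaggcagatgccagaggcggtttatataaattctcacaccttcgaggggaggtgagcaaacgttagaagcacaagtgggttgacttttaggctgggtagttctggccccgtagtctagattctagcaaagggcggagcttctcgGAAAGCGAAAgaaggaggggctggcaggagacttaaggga
Of the 2 genes with an NF-κB match, Tlr2 had a log2 fold change of -0.84 (SE 0.32) and Tlr3 one of 0.01 (SE 0.18).

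Cd14, Ly96 and some of the TLRs are also abundant in macrophages, so markers of other cells were counted in the same libraries. Of 15 markers of macrophages, monocytes and neutrophils, 6 (Itgax, Fcer1g, Tyrobp, S100a8, S100a9 and Ccr2) had 0 counts in all 8 libraries. Their summed counts were 56, 44, 23 and 55 with water and 7, 17, 26 and 35 with zinc, so the groups overlapped. Csf1r, the receptor that defines macrophages, had at most 1 count in any library. C1qa was the largest of the list with 42, 23, 13 and 0 counts with water and 3, 0, 0 and 0 with zinc. Adgre1 had 12 counts in water replicate 1 and 0 elsewhere. Other markers did not fall with zinc. Cd68 had 2, 5, 1 and 2 counts with water and 0, 4, 9 and 18 with zinc. Itgam had 0, 15, 2 and 21 against 2, 12, 13 and 10, and Cx3cr1 had 0 in each water library against 2, 0, 1 and 6. Ptprc, chosen like these after its values were seen, had 32 counts in water replicate 4 and at most 4 elsewhere. That library also had the most Tlr4 and Cd14. Without water replicate 4 the log2 fold change of Cd14 was -1.42. The part of myeloid RNA in the Cd14 values was not tested.

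Markers of 7 other cell types were present at various shares. Of 9 lymphocyte and plasma cell markers 6 were at 0, and the sum was 3 to 4 counts with water and 4 to 15 with zinc. As shares of counts these were 1.39e-05 to 1.80e-05% with water and 1.84e-05 to 7.12e-05% with zinc. Every zinc library was thus above every water library, at very few counts. Stromal and endothelial markers were at 0 for 5 of 8 genes, with sums of 4 to 32 counts. Goblet cell markers held 0.866 to 1.43% of counts, enterocyte markers 0.0384 to 0.0565%, stem cell markers 0.332 to 0.694% and enteroendocrine markers 0.00322 to 0.0112%. Tuft cell markers held 0.00107 to 0.0145%, with the highest sum, 3142 counts, in water replicate 4, which also had the highest share of stem cell markers. No marker gene of any list was past the threshold in edgeR (0).

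**Figure D5:**
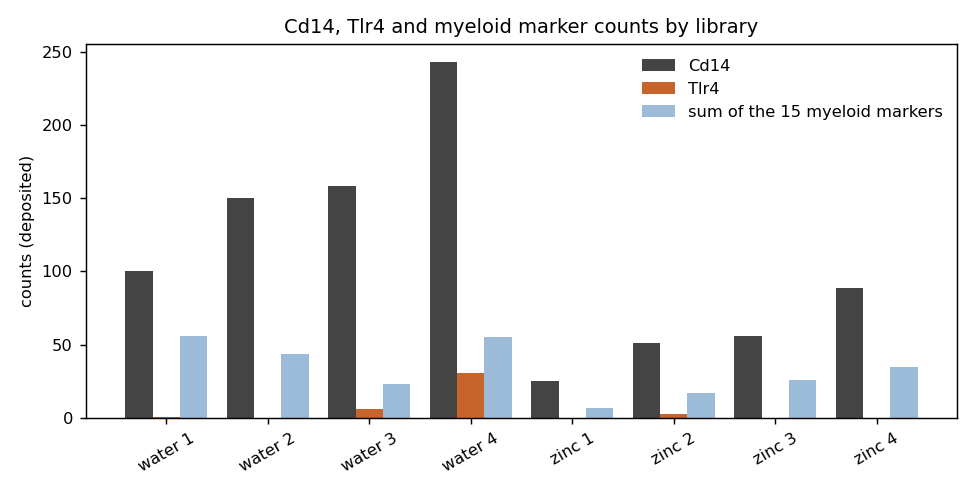
Deposited counts (linear axis from 0) of Cd14, of Tlr4 and of the 15 myeloid markers summed, in each library. Cd14 runs from 25 to 243 counts and the marker sum from 7 to 56, and Tlr4 is visible mainly in water replicate 4 (31 counts).

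The genes whose pattern was most like that of Cd14 over the 8 libraries were found by Pearson r of log2 CPM, given as a description across libraries that share their depth and their groups. They were Ctss (r = 0.97), Barx2 (0.95), Ier5 (0.95), Ctbp2 (0.94) and Stau2 (0.93). Ctss, the protease cathepsin S, had 10.2 to 12.7 CPM with water and 6.41 to 8.30 with zinc. Barx2, a homeobox gene, had 2.50 to 7.41 and 0.193 to 1.40. After each group was centred on its own mean, the most alike were Nedd4l (r = 0.99), Fadd (0.99), Asap3 (0.98), Ckmt1 (0.97) and Septin8 (0.97), and no gene was in both lists of 5. Among the members, r with Cd14 over the 8 libraries was 0.66 for Tlr1, 0.64 for Tlr2 and 0.35 for Ly96, and from -0.26 to 0.12 for Tlr3, Tlr5, Myd88 and Ticam1. Within groups Ly96 ran against Cd14 (r = -0.68).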

How the data were processed

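The authors deposited 1 table of raw read counts per Ensembl gene ID, with 8 columns (4 water, 4 zinc) and no column of another sample (0). The submitters' processing notes name FastQC 0.12.0, STAR 2.7.0a, DESeq2 and mm39. The counting program, its strand setting and its handling of multimapped reads were not given in the sources used here. IDs were matched to GENCODE M39 (54749 of 55414, at least 99.99% of counts in each library), and merged exon lengths were taken from it.

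The zinc and water libraries were compared in R 4.3.3 with edgeR 4.0.16 (low-count filter with a minimum count of 10, TMM scaling, quasi-likelihood F test, treatment only). Of all IDs, 11988 genes were tested, with Benjamini-Hochberg adjustment at 0.05 over all of them. SEs were derived from the log2 fold change and F. The procedure was tested on simulated data. Levels per length used log2(CPM per kb + 0.01). Pearson r used log2 CPM with a prior count of 2. The libraries had no molecular identifiers, so limits from counts cover counting error only, and p-values measure the spread between mice.

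The alternatives were RLE size factors, library totals, DESeq2 1.42.0, limma-voom (limma 3.58.1), no low-count filter, a replicate block, no Defa genes and each library left out. For levels they were the longest transcript, a pseudocount of 0.1 and each library left out. The members and lists were chosen with earlier results of these data known. Named genes were the 10 members, all genes of a pathway list past the threshold, the 2 of each list with the highest level per length, the 5 genes most like Cd14 in each of 2 ways, and the largest marker of the lists described. Others were chosen after their values were seen. Figures were drawn with Python 3.11.15.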

Additional observations from a re-analysis of the deposited data

Results flagged for a closer look

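In 7 of 64 groups of 4 libraries, 1 library stood apart from the other 3 by Dixon's criterion, which chance meets in about 1 in 20 groups. A group with 1 library above 0 and the other 3 at 0 always meets it, as for Tlr4 and Il1r1 with zinc. The 7 therefore cannot be set against that rate. Cd14 was 9.28 CPM in water replicate 4, against 6.25 to 6.68 in the other water libraries. Tlr2 was 1.86 CPM in zinc replicate 3, against 2.12 to 2.14 in the other zinc libraries. Tlr4 was 0.145 CPM in zinc replicate 2 and 0 in the other zinc libraries, which is 3 counts. Tollip was 34.5 CPM in zinc replicate 1, against 29.9 to 30.4. Il1r1 was 0.0776 CPM in zinc replicate 4 (2 counts) and 0 in the other zinc libraries. Goblet cell markers held 0.866% of counts in water replicate 3, against 1.05 to 1.08%. Stromal and endothelial markers held 3.15e-05% in the same library, against 9.55e-05 to 0.000102%.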

How the results depend on the processing

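Cd14 kept a negative log2 fold change in all 14 alternatives tried for it (-1.80 to -1.41), as did Ly96, Tlr1 and Tlr2. These alternatives reuse the libraries that chose the set, so the kept signs are not support. For Cd14, whose groups did not overlap, leaving out a library could not turn the sign. The number of members past the threshold was 1 in the main analysis and 0 with library totals only, and 0 to 1 when each library was left out in turn. All genes past the threshold numbered 36 with DESeq2, 66 without the low-count filter and 1 to 15 with a library left out, against 10. Pathway genes past it numbered 4 with DESeq2 (Pigr, Zc3h12a, Icam1 and Tnf), 3 with library totals only (Zc3h12a, Reg3g and Nfkbiz), 6 without the filter (Pigr, Duox2, Zc3h12a, Saa2, Nfkbia and Tnf) and 1 to 2 with a library left out, against 1. The cause of these differences was not tested. Replicate numbers were not taken to pair the libraries, since no label ties them and same-numbered libraries correlated at 0.233, 5.51e-05, 0.127 and 0.263, with 1 of 4 under 0.1. That 1 value cannot decide on pairing, because water replicate 2 was near 0 with every zinc library (0.00128, 5.51e-05, 0.00249 and -0.00362). As a hint from the data, the other 3 pairs correlated best with their own number, and TMM factors were close by number (0.764 and 0.775, 1.02 and 0.998, 1.07 and 1.05, 1.21 and 1.23). With the replicate block there were 32 calls, of which 1 was a member and 3 were pathway genes (Pigr, Duox2 and Zc3h12a). With a library left out, log2 fold changes ran from -1.04 to 0.21 for Tlr6, from -0.020 to 0.26 for Hsp90b1 and from -0.27 to 0.17 for Ang4. Of the 9 neighbouring pairs of levels, 5 differed, against 0 with the longest transcript and 3 to 5 with a library left out. These counts are not like for like, since some settings had other neighbours. With a library left out, the smallest exact p of the sign-flip test was 0.0156. With the longest transcript, Tlr3 was still above Tlr5 in 8 of 8 libraries (sign-flip exact p = 0.00781, adjusted 0.0703). Depth limited Tlr1, Tlr4, Tlr6, Icam1 and Tnf, all with fewer than 50 counts in every library.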

Other observations

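The acute phase genes Saa1, Saa2 and Saa3, which intestinal epithelium induces in contact with bacteria, had 103, 71 and 19 counts in water replicate 4 and at most 2 counts in any other library. That library also held the highest counts of Cd14, Tlr2 and Tlr4. Cxcl10, an interferon-induced chemokine gene, had 36 counts in zinc replicate 4 and at most 5 elsewhere. These genes were chosen after their values were seen.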
